A study of Mus musculus with 18 samples.

Results

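This account concerns 10 transcriptional targets of the tumour suppressor p53 that act mainly in cell cycle arrest, stress defence and repair: Cdkn1a, Mdm2, Btg2, Ccng1, Gdf15, Zmat3, Sesn2, Trp53inp1, Ercc5 and Perp. They were chosen by gene symbol, as textbook p53 targets outside the core apoptosis machinery, from the 32765 symbols of the count table. Earlier results of these data were known when they were chosen. All 10 were in the table and all 10 passed the filter on low counts, among 12171 symbols tested over 18 libraries. RNA came from PyMT-BO1, a C57BL/6 mouse model of luminal B-like breast cancer, grown as a cell line. The integrin β3 gene is knocked out in every group. The knockout cells received an empty vector (pMx), functional human integrin β3 (hβ3) or a signalling-deficient mutant integrin β3 (Δβ3), and each line was kept for 24 h in DMSO, the solvent control, or in 10 nM docetaxel, a taxane drug that binds and stabilises microtubules. There were 3 cultures in each of the 6 groups. The labels do not say that any construct was put into more than 1 cell population, and the p-values thus refer to variation between cultures of 1 line per construct. The cells were grown in culture, so no host tissue was part of the design.

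p53 is a transcription factor that is kept low by the ubiquitin ligase Mdm2, which is itself a p53 target, so that the pair forms a feedback loop. After DNA damage, ribosomal stress or a prolonged or failed mitosis p53 accumulates and raises genes that stop the cell cycle, with Cdkn1a, which encodes the cyclin-dependent kinase inhibitor p21, the best known. Other targets lower oxidative stress, restrain growth signalling or repair DNA.

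Sequences upstream of the members' transcription starts are shown for the genes in which a match to the p53 motif, the base pattern that p53 recognises, was found. They were taken from RefSeq (build GRCm38.p6), which had promoter entries for 7 of the 10 members, with 9 starts in all, and the 250 bases before each start were searched on both strands. An exact match to the p53 consensus decamer, a motif of 10 bases, was present in 3 of the 9 windows and in 7.13% of the 32851 windows of all genes. Pairs were also sought, with the central C, A or T, A or T, G intact in each decamer, so that mismatches could only lie outside it. A pair of such decamers with a spacer of 0 to 13 bases and at most 2 mismatches in all was present in 1 of the 9 windows and in 1.75% of all windows. That window lies before the upstream of the 2 RefSeq starts of Cdkn1a, on the plus strand at chr17:29090729-29090978. It holds 2 such pairs. The pair in capitals has the shorter spacer, 0 bases, and 1 mismatch. It runs from 51 to 32 bases before the start. The other pair joins ggactagctt, an exact decamer left in lower case, to the first decamer in capitals, GAACATGTCT, and has no mismatch. The Mdm2 and Ccng1 stretches, on the minus strand at chr10:117710859-117710958 and chr11:40755387-40755486, each hold 1 exact decamer, in capitals, at 186 to 177 and 185 to 176 bases before the start. These matches are descriptions of the letters and were not measured as binding. No match in a window says only that these letters are not in it.
Cdkn1a: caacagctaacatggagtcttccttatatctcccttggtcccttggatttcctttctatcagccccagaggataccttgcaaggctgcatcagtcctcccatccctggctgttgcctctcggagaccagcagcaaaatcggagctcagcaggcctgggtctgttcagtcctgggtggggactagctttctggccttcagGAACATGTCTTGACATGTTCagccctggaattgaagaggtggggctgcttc
Mdm2: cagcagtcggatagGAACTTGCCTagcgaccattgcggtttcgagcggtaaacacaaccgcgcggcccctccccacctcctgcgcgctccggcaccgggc
Ccng1: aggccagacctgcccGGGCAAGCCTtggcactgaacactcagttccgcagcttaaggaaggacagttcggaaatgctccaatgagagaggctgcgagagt

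The libraries held 7972612 to 18961392 counts. A pair of libraries stood apart and bear on every value for Δβ3: heart muscle transcripts made up 3.48% of the counts in Δβ3 docetaxel culture 2 and 0.362% in Δβ3 DMSO culture 1, against 0.0161% to 0.279% in the other 16. In these libraries the ribosomal precursor Rn45s took 23.6% and 41.5% of counts, and 6.59% to 33.0% in the others. Of 21 heart markers listed, Nppb was at 0 in every library. Myl2, Actc1 and Tnni3 had counts in all 18. Luminal markers made up 0.0892% of counts in Δβ3 docetaxel culture 2, against 0.147% to 0.366% in the others, nearly all of it Krt8 and Krt18, while Gata3 and Pgr were at 0 everywhere and Epcam had 5 counts in all. The biological coefficient of variation was 36.0% over 18 libraries and 13.2% over the 16 left without both, so counts of members called are given with both fits. Single estimates are from 18 libraries unless 16 are named. The part of the foreign transcripts in any result was not tested beyond this omission. In bulk RNA, fewer cells that express a gene and less RNA per cell cannot be told apart.

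Most of these 10 p53 targets were called higher in docetaxel, and the size differed widely among them. They were chosen with earlier results known, so their share describes these 10 and not p53 targets at large. Averaged over the 3 lines, 9 of the 10 were called higher in docetaxel (adjusted p below 0.05), where 7.85% of all tested genes were called higher. Without the 2 libraries all 10 were called, against 15.7% of all genes. The median log2 fold change of the 10 was 0.86, beside 0.06 for all tested genes, and 1.00 beside 0.02 in 16 libraries. The largest rises were those of Trp53inp1 and Gdf15, 6.29-fold and 6.19-fold, and Btg2 rose 3.28-fold. Perp, Cdkn1a, Ccng1, Ercc5, Sesn2 and Zmat3 rose between 1.40-fold and 2.15-fold. Mdm2 was the member that was not called in 18 libraries. Leaving out any 1 library kept each of the 9 calls.

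**Figure D1:**
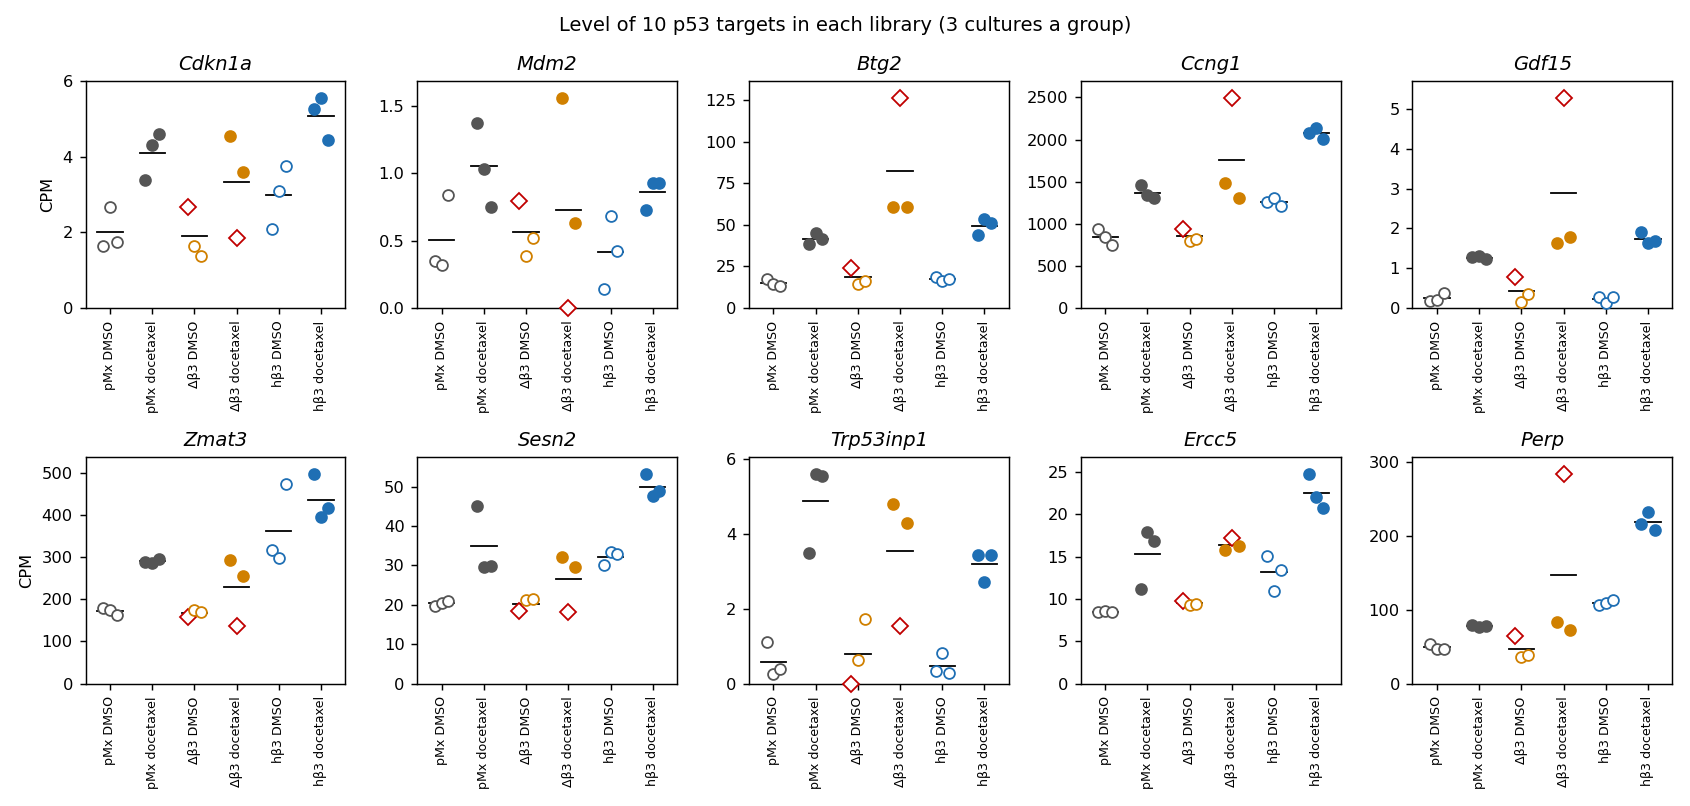
Level of each member in counts per 1000000 counts (CPM, vertical axis, linear from 0, a scale of its own in each panel) in every culture. Open circles are DMSO, filled circles docetaxel, red diamonds the 2 libraries with the most heart muscle transcripts, and bars group means of 3; outside the diamonds, docetaxel cultures lie above the DMSO cultures of their line for every member except Mdm2 in pMx and Zmat3 in hβ3.

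Levels in CPM are given after trimmed-mean scaling, over the counts of tested genes, and are compared within a gene only. Cdkn1a (chromosome 17, 29090976 to 29100727, plus strand), the p21 gene, was at 1.64, 2.68 and 1.74 CPM in the pMx DMSO cultures and at 3.39, 4.30 and 4.59 in docetaxel. In Δβ3 cells it was at 2.67, 1.63 and 1.38 CPM in DMSO and 4.55, 1.86 and 3.58 in docetaxel. In hβ3 cells the values were 2.08, 3.10 and 3.76 CPM in DMSO and 5.25, 5.56 and 4.46 in docetaxel. The pMx and hβ3 groups did not overlap, while in Δβ3 the docetaxel culture with heart transcripts fell among the DMSO cultures. The mean response was 0.88 ± 0.20 (SE) on the log2 scale, with an adjusted p of 0.00583, and 1.09 ± 0.16 in 16 libraries, with an adjusted p of 8.15e-06. In no single line did Cdkn1a pass in the 18-library fit (adjusted p 0.128 in pMx, 0.141 in Δβ3 and 0.442 in hβ3). It passed in all 3 without the 2 libraries, with log2 fold changes of 1.03, 1.44 and 0.79. Cdkn1a had only 789 counts over the 18 libraries, divided among 3 transcript models. The model of 1913 bases went from 137 to 254 counts between the 9 DMSO and 9 docetaxel libraries, the one of 1943 bases from 46 to 106, and the one of 2010 bases from 102 to 144. Each of the 3 models thus had more counts in docetaxel.

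Btg2 (chromosome 1, 134075170 to 134079120, minus strand), an antiproliferative gene of the BTG/TOB family, separated the treatments in every line. The pMx cultures were at 17.3, 14.6 and 13.2 CPM in DMSO and 38.6, 45.0 and 41.6 in docetaxel. The Δβ3 cultures were at 24.2, 14.7 and 16.4 CPM in DMSO and 60.7, 127 and 60.7 in docetaxel. The hβ3 cultures were at 18.4, 16.5 and 17.7 CPM in DMSO and 43.9, 53.6 and 51.2 in docetaxel. All 9 docetaxel cultures lay above all 9 DMSO cultures, and both Δβ3 libraries with heart transcripts were the highest of their groups. The response was called in each line in both fits: 1.48 ± 0.25 in pMx, 2.16 ± 0.25 in Δβ3 and 1.501 ± 0.247 in hβ3 on the log2 scale, with adjusted p-values of 0.00313, 0.000146 and 0.00507. In 16 libraries the estimates were 1.49, 1.97 and 1.52. In the order of group means the 3 DMSO groups overlapped one another, pMx and hβ3 in docetaxel overlapped each other, and Δβ3 in docetaxel stood above both.

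Ccng1 (chromosome 11, 40748552 to 40755311, minus strand), which encodes cyclin G1, a partner of protein phosphatase 2A in the control of Mdm2, was the member with the most counts, 314066 in all. Its pMx cultures lay at 747 to 936 CPM in DMSO and 1301 to 1456 in docetaxel, and its hβ3 cultures at 1210 to 1310 and 2011 to 2133. In Δβ3 cells it was at 940, 797 and 823 CPM in DMSO and 1480, 2495 and 1307 in docetaxel. The groups did not overlap in any line. The mean response was 0.82 ± 0.10 on the log2 scale (adjusted p 5.02e-05), and 0.74 ± 0.04 in 16 libraries. With the 16 libraries the 3 lines gave 0.71, 0.79 and 0.74, each with an SE below 0.09.

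Mdm2 (chromosome 10, 117688875 to 117710758, minus strand) was scarcely sampled. Counts were found for only 1 of its 4 transcript models, 166 in all and at most 25 in a library. In pMx cells it was at 0.346, 0.319 and 0.838 CPM in DMSO and at 1.38, 1.03 and 0.750 in docetaxel. The Δβ3 cultures were at 0.790, 0.388 and 0.519 CPM in DMSO and 1.56, 0 and 0.627 in docetaxel, where 0 counts allow up to 0.466 CPM by counting error. The hβ3 cultures were at 0.139, 0.682 and 0.426 CPM in DMSO and 0.729, 0.926 and 0.925 in docetaxel. The groups overlapped in pMx and in Δβ3, where they were apart only with both set-apart libraries left out, and were apart in hβ3. The mean response was 0.85 ± 0.43 on the log2 scale with an interval of -0.06 to 1.76 (adjusted p 0.203), and 1.11 ± 0.35 in 16 libraries (adjusted p 0.0141). No single line passed in either fit, and the intervals in 16 libraries reached from -0.12 to 2.11 in pMx and from -0.13 to 2.19 in hβ3. A difference of this size within 1 line did not pass at these counts and with 3 cultures a group.

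Gdf15 (chromosome 8, 70629393 to 70632456, minus strand), a secreted cytokine of the TGF-β family that is raised by many stresses, was near the limit of detection in DMSO and rose clearly. In pMx cells it was at 0.173, 0.191 and 0.387 CPM in DMSO and 1.27, 1.31 and 1.22 in docetaxel. In Δβ3 cells the values were 0.790, 0.155 and 0.346 CPM in DMSO and 1.62, 5.28 and 1.79 in docetaxel. In hβ3 cells they were 0.277, 0.124 and 0.284 CPM in DMSO and 1.90, 1.64 and 1.68 in docetaxel. Every docetaxel culture was above every DMSO culture, and the 2 libraries with heart transcripts were the highest of their groups. Gdf15 was called in each line in both fits, with log2 fold changes of 2.27 ± 0.61 in pMx, 2.72 ± 0.57 in Δβ3 and 2.89 ± 0.61 in hβ3 (adjusted p 0.0402, 0.0102 and 0.0202). It rests on 236 counts, 2 to 34 in a library.

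Trp53inp1 (chromosome 4, 11156431 to 11174379, plus strand), which encodes a stress protein that acts with p53 and in autophagy, had the largest mean response in 18 libraries, 2.65 ± 0.43 on the log2 scale (adjusted p 0.000544). Its pMx cultures were at 1.12, 0.255 and 0.387 CPM in DMSO and 3.49, 5.61 and 5.53 in docetaxel. Its Δβ3 cultures were at 0, 0.621 and 1.73 CPM in DMSO and 4.80, 1.55 and 4.30 in docetaxel, where 0 counts allow up to 0.296 CPM. Its hβ3 cultures were at 0.346, 0.806 and 0.284 CPM in DMSO and 3.43, 2.71 and 3.45 in docetaxel. The treatments were apart in pMx and hβ3 and overlapped in Δβ3 by the docetaxel library with heart transcripts alone. In 18 libraries only pMx passed (3.08 ± 0.74, adjusted p 0.033), with adjusted p-values of 0.0838 in Δβ3 and 0.13 in hβ3. In 16 libraries all 3 lines passed, at 3.15 ± 0.45, 1.98 ± 0.48 and 2.70 ± 0.46. Of its 545 counts, 495 fell on the transcript model of 1677 bases, which went from 64 counts in DMSO to 431 in docetaxel.

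Sesn2 (chromosome 4, 132492032 to 132510501, minus strand) encodes sestrin 2, a sensor of leucine that restrains mTORC1 and also a target of ATF4. It lay at 19.8 to 20.9 CPM in pMx DMSO and 29.6 to 45.0 in docetaxel, and at 30.1 to 33.4 and 47.6 to 53.3 in hβ3. In Δβ3 it was at 18.4, 21.1 and 21.4 CPM in DMSO and 32.1, 18.2 and 29.7 in docetaxel. The docetaxel culture with heart transcripts was the only one that lay below its DMSO group. The mean response was 0.60 ± 0.11 on the log2 scale (adjusted p 0.00147). pMx passed in both fits (0.77 ± 0.20, adjusted p 0.0369, in 18 libraries), and Δβ3 and hβ3 only in 16 libraries (0.55 ± 0.15 and 0.66 ± 0.12).

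Zmat3 (chromosome 3, 32334792 to 32366014, minus strand), an RNA-binding zinc finger protein that acts in p53 tumour suppression, showed the smallest mean response of the 10, 0.49 ± 0.12 on the log2 scale (adjusted p 0.0132). The pMx cultures were at 179, 175 and 164 CPM in DMSO and 288, 286 and 296 in docetaxel. The Δβ3 cultures were at 158, 175 and 170 CPM in DMSO and 293, 136 and 256 in docetaxel. The hβ3 cultures were at 317, 299 and 473 CPM in DMSO and 498, 395 and 415 in docetaxel. The pMx groups were far apart, while in hβ3 the third DMSO culture lay above 2 of the 3 docetaxel cultures. That DMSO culture had the highest share of Rn45s among the hβ3 libraries, 33.0%. In hβ3 Zmat3 was not called in either fit, at 0.27 ± 0.22 and 0.28 ± 0.14 on the log2 scale, with a 95% interval of -0.03 to 0.60 in 16 libraries. In pMx it was 0.76 ± 0.15 in 16 libraries (adjusted p 0.00211) and did not pass in 18 (adjusted p 0.0665).

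Ercc5 (chromosome 1, 44147744 to 44181260, plus strand), the XPG endonuclease of nucleotide excision repair, rose by a like amount in each line. It lay at 8.48 to 8.54 CPM in pMx DMSO and 11.1 to 17.9 in docetaxel, at 9.31 to 9.78 and 15.7 to 17.2 in Δβ3, and at 10.9 to 15.1 and 20.7 to 24.8 in hβ3. No line had overlapping groups, and the 2 libraries with heart transcripts were only slightly the highest of their groups. The log2 fold changes were 0.85 ± 0.18 in pMx, 0.78 ± 0.18 in Δβ3 and 0.78 ± 0.18 in hβ3, and all 3 passed in both fits (adjusted p 0.0157, 0.0187 and 0.0489 in 18 libraries).

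Perp (chromosome 10, 18845020 to 18857073, plus strand) encodes a membrane protein of desmosomes that has also been described as a p53 effector in apoptosis. In pMx cells it was at 54.1, 47.1 and 47.0 CPM in DMSO and 80.0, 77.3 and 78.4 in docetaxel. In Δβ3 cells the values were 65.2, 36.4 and 39.2 CPM in DMSO and 84.1, 284 and 72.3 in docetaxel. In hβ3 cells they were 106, 109 and 113 CPM in DMSO and 216, 232 and 208 in docetaxel. The treatments did not overlap in any line, and the heart-rich docetaxel library was more than 3 times as high as the other Δβ3 docetaxel cultures. The mean response was 1.10 ± 0.22 on the log2 scale (adjusted p 0.00327) and 0.92 ± 0.05 in 16 libraries. The 18-library fit called Perp in Δβ3 alone (1.64 ± 0.38, adjusted p 0.0228), a call lost without Δβ3 DMSO culture 2 or 3, and the 16-library fit in all 3 lines, at 0.68 ± 0.08 in pMx, 1.06 ± 0.10 in Δβ3 and 1.01 ± 0.08 in hβ3.

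Counted by line, docetaxel raised 6 of the 10 in pMx, 5 in Δβ3 and 3 in hβ3 in the 18-library fit, where 1.91%, 3.33% and 0.92% of all tested genes were called higher. In 16 libraries the counts were 9, 9 and 8, beside 10.2%, 5.98% and 7.27%. The counts by line in 18 libraries rest on narrow margins: leaving out any 1 of the 6 pMx cultures lowered the pMx count to 1 or 2, as did any hβ3 docetaxel culture, to 2, and Δβ3 DMSO culture 3 lowered it to 3. Any 1 of the 6 hβ3 cultures left out lowered the hβ3 count to 1, and leaving out Δβ3 DMSO culture 1 or Δβ3 docetaxel culture 2 raised it to 5 or 7. The latter also raised the Δβ3 count to 9. In pMx the call of Ccng1 was lost in 14 of the 18 omissions, that of Gdf15 in 12, Sesn2 in 10, Trp53inp1 in 8 and Ercc5 in 5, and in hβ3 that of Ercc5 in 15 and Gdf15 in 6. The Btg2 calls held in every line through each of these 18 omissions. Mdm2 was the uncalled member in each line of the 16-library fit, joined in hβ3 by Zmat3. The docetaxel cultures lay wholly above the DMSO cultures for 9 members in pMx, 5 in Δβ3 and 9 in hβ3, and for 10 in Δβ3 once the 2 libraries were left out. All tested genes did so in 17.4%, 9.11%, 14.9% and, after the omission, 28.3% of cases. Some marker genes of other cell types moved with docetaxel. The 6 leukocyte markers summed to 0.000417% to 0.000485% of counts in pMx DMSO and 0.000727% to 0.000920% in docetaxel, to 0.000121% to 0.000407% and 0.000811% to 0.00106% in Δβ3, and to 0.000206% to 0.000522% and 0.000847% to 0.000948% in hβ3. Most of these counts belong to Cd68, a lysosomal gene that rose by 1.22 ± 0.20 on the log2 scale, while Adgre1 was at 0 and Ptprc had 3 counts in all. Of 6 tested fibroblast markers 1 rose, the receptor gene Pdgfra (0.92 ± 0.30, adjusted p 0.0436), while Pdgfrb was at 0, and the list's summed level overlapped between treatments in each line. The luminal markers in hβ3 summed to 0.147% to 0.205% in DMSO and 0.221% to 0.259% in docetaxel. The part of these markers in the results was not tested.

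**Figure D2:**
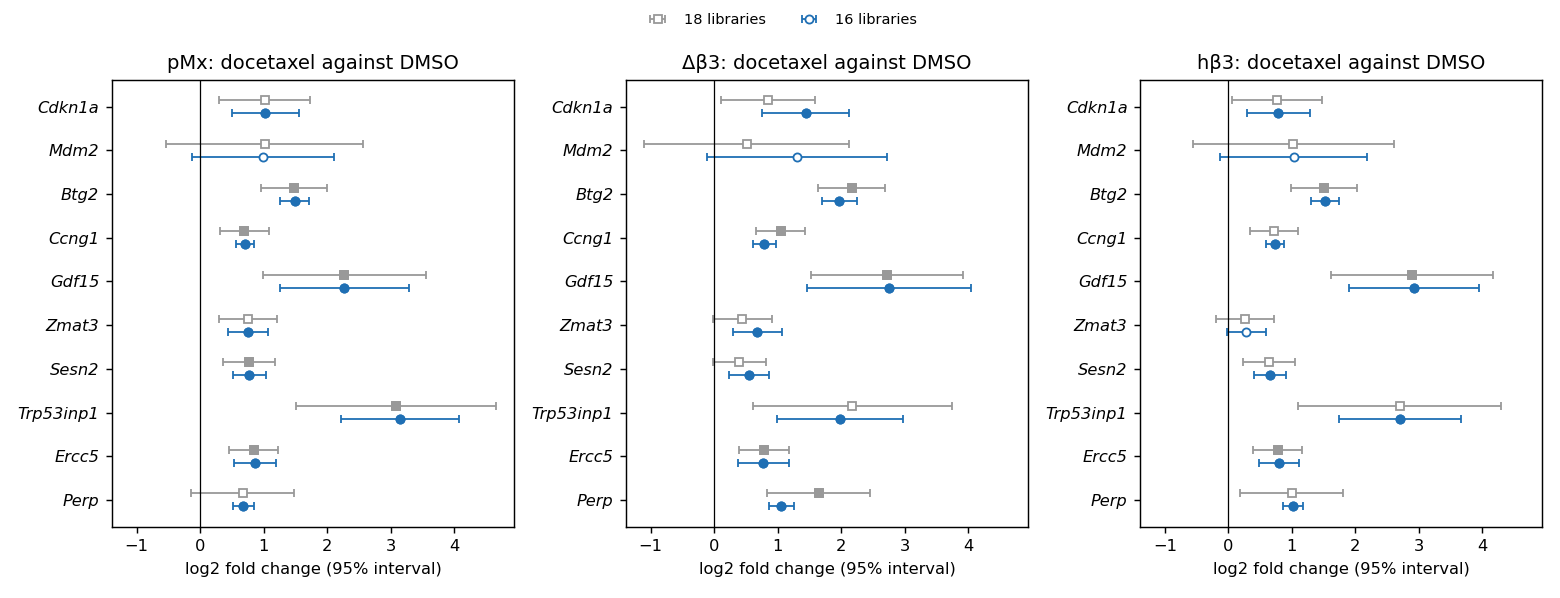
Log2 fold change of docetaxel against DMSO for each member in each line (horizontal axis, with 95% intervals), fitted over 18 libraries (grey squares) and over 16 (blue circles). Filled symbols passed an adjusted p of 0.05; every estimate lies above 0, and most intervals are narrower in 16 libraries.

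Whether the line changes the docetaxel response was tested as the difference between the lines' log2 fold changes. No member passed in any of the 3 comparisons, in either fit. DESeq2 also called none, but gave an adjusted p to only 6 of the 10 for hβ3 minus Δβ3 in both fits. The same held for hβ3 minus pMx in 16 libraries, and members without an adjusted p could not be called. Genes of any kind were rarely called: 0.00822% for hβ3 minus pMx, 0.0411% for hβ3 minus Δβ3 and 0% for Δβ3 minus pMx in 18 libraries, and 2.30%, 0.606% and 0% in 16. At an unadjusted p below 0.05 there were 0 members in each comparison in 18 libraries, where 3.62%, 8.64% and 4.28% of all tested genes were, and 2, 1 and 2 in 16, where 15.6%, 9.58% and 2.84% were. These were Perp and Zmat3 for hβ3 minus pMx, Btg2 for hβ3 minus Δβ3, and Btg2 and Perp for Δβ3 minus pMx.

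The intervals, given here over 16 libraries, show how far the lines could differ. Ccng1 was bounded most closely: its response in hβ3 minus that in pMx was 0.03, with an interval of -0.18 to 0.24 on the log2 scale in 16 libraries. Btg2 gave 0.03 (-0.29 to 0.35) for the same pair and -0.45 (-0.81 to -0.10, adjusted p 0.352) for hβ3 minus Δβ3. Perp gave 0.33 (0.10 to 0.56, unadjusted p 0.00602, adjusted p 0.119) for hβ3 minus pMx. Zmat3 gave -0.48 (-0.92 to -0.03, adjusted p 0.285) for that pair. For Cdkn1a the interval of hβ3 minus pMx ran from -0.96 to 0.49, that of hβ3 minus Δβ3 from -1.50 to 0.20 and that of Δβ3 minus pMx from -0.46 to 1.28. For Gdf15 the interval of hβ3 minus pMx ran from -0.80 to 2.09. The largest estimate of the 10, for Trp53inp1 in Δβ3 minus pMx, was -1.17, with an interval of -2.53 to 0.18. A p that misses the threshold does not show that the lines respond alike. For Cdkn1a, Mdm2, Gdf15 and Trp53inp1 differences of over 2-fold lie within the intervals of 16 libraries. In 18 libraries this also holds for Btg2, Zmat3 and Perp.

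**Figure D3:**
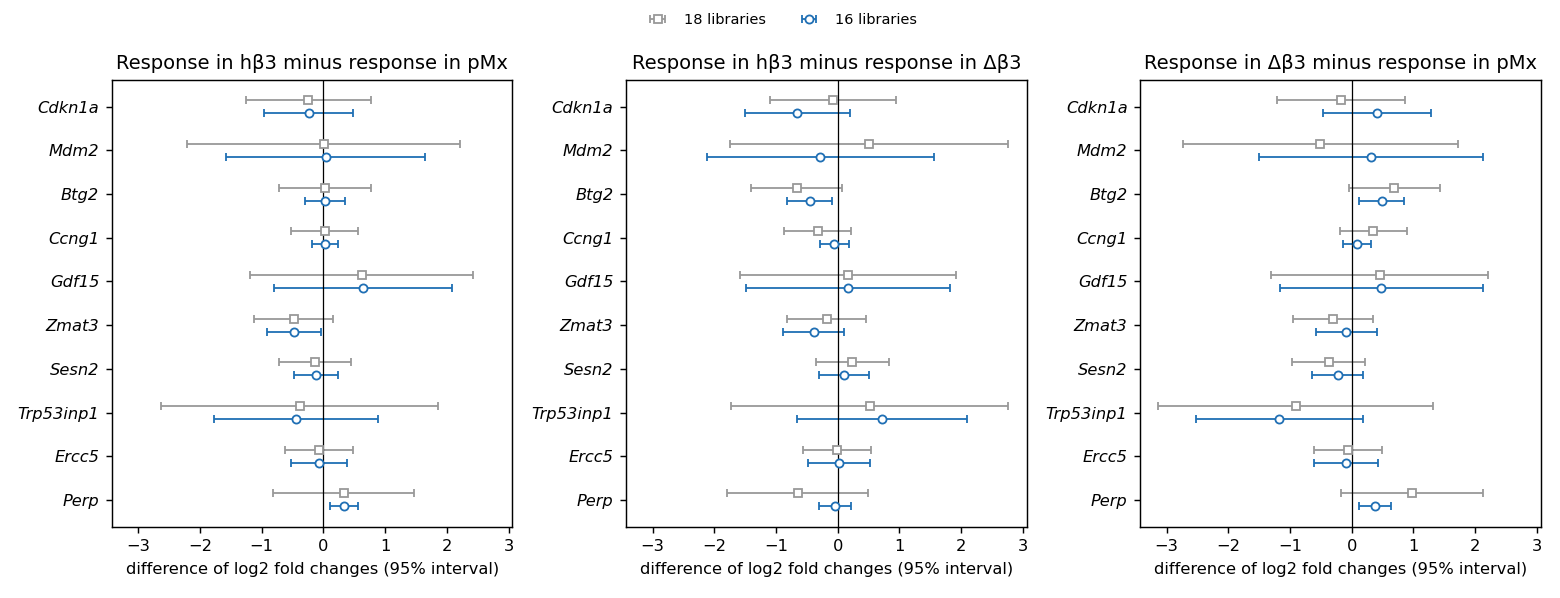
Difference between lines in the log2 docetaxel response of each member (horizontal axis, with 95% intervals), over 18 libraries (grey squares) and 16 (blue circles). No symbol is filled, since no difference passed an adjusted p of 0.05, and the widest intervals belong to Mdm2, Gdf15 and Trp53inp1.

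In DMSO several members were already higher with functional integrin β3. Against pMx, 3 of the 10 were called higher in hβ3 in 18 libraries and 5 in 16, where 4.85% and 13.2% of all tested genes were called higher. Zmat3 was 2.10-fold higher (log2 difference 1.07 ± 0.22, adjusted p 0.004), Sesn2 1.57-fold (0.65 ± 0.20, adjusted p 0.0465) and Ercc5 1.54-fold (0.63 ± 0.18, adjusted p 0.0416). Zmat3 stayed called in each of the 18 omissions of 1 library, whereas the Sesn2 call was lost in 14 of them and the Ercc5 call in 13. In 16 libraries Ccng1 (0.56 ± 0.07, adjusted p 1.31e-06) and Perp (1.13 ± 0.08, adjusted p 3.36e-11) joined them. The hβ3 DMSO cultures lay wholly above those of pMx for these 5 members, for instance at 106 to 113 CPM against 47.0 to 54.1 for Perp. Of all tested genes 19.8% were separated in this way.

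Against Δβ3, 3 members were called higher in hβ3 in 18 libraries and 5 in 16, beside 6.22% and 11.1% of all tested genes. Zmat3 differed by 1.11 ± 0.22, Sesn2 by 0.66 ± 0.20 and Perp by 1.23 ± 0.38 on the log2 scale (adjusted p 0.00232, 0.0347 and 0.0487). The Zmat3 call held in each omission of 1 library, the Sesn2 call was lost in 8 and the Perp call in 14. Cdkn1a (0.96 ± 0.32, adjusted p 0.0259) and Ccng1 (0.62 ± 0.08) were added in 16 libraries, and Perp was then at 1.52 ± 0.09. Both comparisons share the hβ3 cultures. Δβ3 and pMx in DMSO gave no call among the 10 in either fit, where 0.0411% and 0.331% of all genes were called in either direction. The number of members at an unadjusted p below 0.05 was 0 in 18 libraries and 1 in 16, Perp, at -0.39 ± 0.09 (adjusted p 0.0599), beside 10.1% and 8.58% of all tested genes. Btg2, Gdf15, Mdm2 and Trp53inp1 were not called between any pair of lines in DMSO. In 18 libraries the intervals of the last 3 span more than 2-fold in each direction in at least 1 pair. For Trp53inp1 the estimate of hβ3 minus Δβ3 was negative, at -0.70 ± 0.81 in 18 libraries. In 16 it was -1.24, with an interval of -2.38 to -0.10 (unadjusted p 0.0312, adjusted p 0.108). In hβ3 DMSO the luminal markers summed to 0.147% to 0.205% of counts, against 0.252% to 0.287% in pMx DMSO and 0.212% to 0.362% in Δβ3 DMSO, and Rn45s took 10.9% to 33.0% against 8.36% to 9.81% in pMx. The 8 fibroblast markers summed to 0.00106% to 0.00219% in hβ3 DMSO, 0.00282% to 0.00771% in pMx and 0.00336% to 0.0125% in Δβ3. The 5 endothelial markers summed to 0.000306% to 0.000663% in hβ3 DMSO, 0.000699% to 0.00304% in pMx and 0.000653% to 0.00424% in Δβ3, with Tek at 0. Their part in the line differences was not tested.

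**Figure D4:**
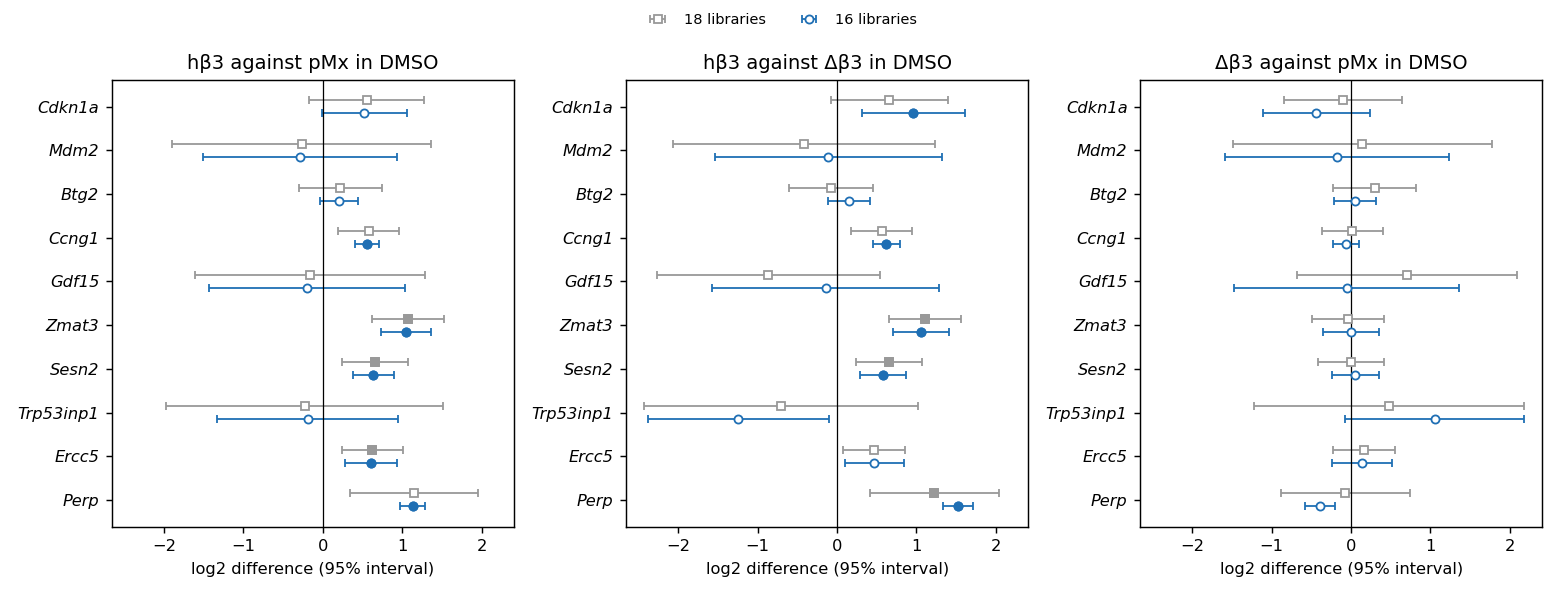
Log2 difference between lines in DMSO for each member (horizontal axis, with 95% intervals), over 18 libraries (grey squares) and 16 (blue circles). Filled symbols passed an adjusted p of 0.05; they are found for hβ3 against pMx and against Δβ3 and not for Δβ3 against pMx.

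Combining line and treatment, the order of the 6 group means differed among members. For Zmat3 the hβ3 DMSO mean, 363 ± 95.6 CPM (SD, n = 3), was above the pMx docetaxel mean, 290 ± 5.19, and the cultures of these groups did not overlap. For Perp the hβ3 DMSO mean was 110 ± 3.43 CPM and the pMx docetaxel mean 78.6 ± 1.36. For Btg2 and Gdf15 the 3 DMSO groups came first and overlapped as neighbours, and a gap separated them from docetaxel. For Trp53inp1 the 3 DMSO means also came first, but 1 Δβ3 docetaxel culture, at 1.55 CPM, lay below 1 Δβ3 DMSO culture, at 1.73. Cdkn1a and Mdm2 showed overlap between every pair of neighbouring groups.

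The wider p53 network was described through lists taken from textbook knowledge. Trp53 itself, which encodes p53, was at 1.38 to 5.32 CPM over the DMSO cultures and 2.15 to 3.80 in docetaxel, with a mean response of -0.11 ± 0.19 on the log2 scale (adjusted p 0.738). In DMSO it was higher in hβ3 than in pMx by 0.81 ± 0.33, which was not called in 18 libraries (adjusted p 0.171), and by 0.77 ± 0.29 in 16, which was (adjusted p 0.0479). Of 8 tested regulators of p53, none was called higher and 1, the checkpoint kinase gene Chek1, was called lower (-0.84 ± 0.22, adjusted p 0.0157). The list's median was -0.12, beside 0.06 for all tested genes, of which 7.85% were called higher and 7.64% lower.

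Among 10 tested p53 targets of apoptosis, 3 rose and none fell in 18 libraries, and 4 rose in 16. Of all tested genes 7.85% and 15.7% were called higher in these fits, and 7.64% and 14.3% lower. Fas, a death receptor, rose by 1.95 ± 0.26 on the log2 scale, Pmaip1, the BH3-only protein Noxa, by 1.43 ± 0.10, and Bbc3, the BH3-only protein Puma, by 0.48 ± 0.14. The list's median was 0.14 in 18 libraries, beside 0.06 for all tested genes. Of 22 other tested p53 targets, 7 rose and 3 fell, and 14 rose and 4 fell in 16 libraries. Their medians were 0.30 and 0.40, beside 0.06 and 0.02 for all tested genes. Gadd45a, a DNA damage-inducible gene, rose by 1.35 ± 0.11 and the receptor gene Notch1 by 1.25 ± 0.08, while Pcna, the sliding clamp of DNA replication, was lower at -0.64 ± 0.10. Plk2, a polo-like kinase gene, was called in each line and in opposite directions, at 0.97 ± 0.11 in pMx, 1.23 ± 0.11 in Δβ3 and -0.51 ± 0.11 in hβ3. Its difference in response was called for hβ3 minus pMx (-1.47 ± 0.15, adjusted p 0.000312) and hβ3 minus Δβ3 (-1.74 ± 0.15, adjusted p 2.77e-05). In DMSO Plk2 was at 191 to 202 CPM in hβ3 and 22.2 to 25.1 in pMx. Pmaip1 was likewise higher in hβ3 DMSO than in pMx DMSO, at 20.6 to 21.1 against 2.99 to 3.98 CPM. Its response in 18 libraries was 1.68 ± 0.17 in pMx, 1.96 ± 0.18 in Δβ3 and 0.64 ± 0.16 in hβ3, the last not called (adjusted p 0.0829). Its response differences for hβ3 minus pMx and hβ3 minus Δβ3 were not called in 18 libraries (adjusted p 0.388 and 0.0748). Both were called in 16, at -1.04 ± 0.19 (adjusted p 0.00365) and -1.31 ± 0.24 (adjusted p 0.00612).

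A list of cell cycle genes known to be repressed through p21 was counted, and the part of p21 in their change was not tested. Of 18 tested, none rose and 8 fell in 18 libraries, and 1 rose and 12 fell in 16, with medians of -0.38 and -0.26. Of all tested genes 7.64% and 14.3% were called lower. Mybl2, a transcription factor of the G1/S transition, was at -1.08 ± 0.07 on the log2 scale, E2f1 at -0.89 ± 0.21, Rrm2, a ribonucleotide reductase subunit, at -0.73 ± 0.09 and Aurkb, a mitotic kinase, at -0.65 ± 0.10. In hβ3 alone none of the list rose and 1 fell in 18 libraries, and 1 rose and 6 fell in 16. The list's medians there were -0.31 and -0.29. Of all tested genes 0.92% and 7.27% were called higher in hβ3, and 0.238% and 5.16% lower. Some listed genes, named after their values were seen, had higher means in hβ3 docetaxel than in hβ3 DMSO. Ccnb2 was at 199 against 158 CPM, Cdc20 at 71.3 against 61.6 and Ccnb1 at 9.51 against 7.77. In pMx and Δβ3 the means of Cdc20 and Ccnb1 were lower in docetaxel. Sesn2, Gdf15 and Trp53inp1 can also answer to other stress pathways, and which pathway raised them was not tested. Genes of the ATF4 programme were counted too. Of 12 tested genes 1 rose and 6 fell in 18 libraries, and 3 rose and 7 fell in 16, with medians of -0.63 and -0.57. Of all tested genes 7.85% and 15.7% were called higher and 7.64% and 14.3% lower, with medians of 0.06 and 0.02. Chac1, a glutathione-degrading enzyme, was at -0.84 ± 0.08, Psat1 and Phgdh of serine synthesis at -0.82 ± 0.10 and -0.73 ± 0.09, and Asns, asparagine synthetase, at -0.74 ± 0.11. Of the other CDK inhibitors 2 were tested, and neither was called in 18 libraries, while in 16 Cdkn1b was called higher (0.34 ± 0.04) and Cdkn2c lower (-0.19 ± 0.06).

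**Figure D5:**
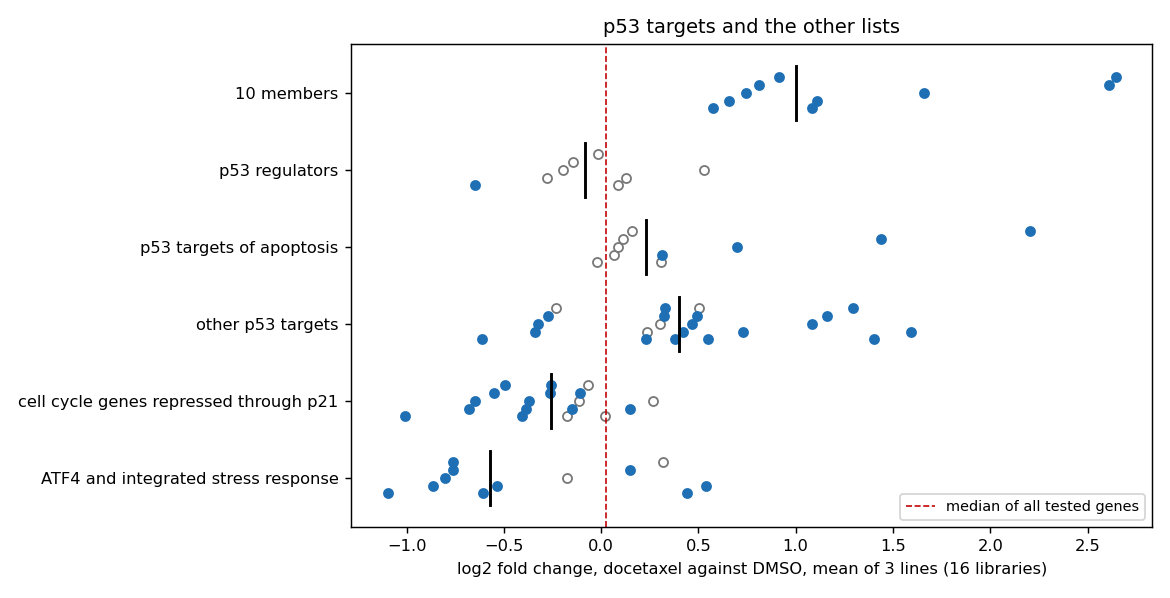
Log2 fold change of docetaxel against DMSO, averaged over the 3 lines in 16 libraries (horizontal axis), for every tested gene of the 10 members and of 5 lists. Filled points passed an adjusted p of 0.05, black bars are list medians and the dashed line is the median of all tested genes, 0.02; the members' median is 1.00.

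Genes whose log2 CPM followed the members most closely over the 16 libraries were found by Pearson correlation among genes of at least 2 CPM. For Cdkn1a they were Dtx4 (r = 0.918), Ano3 (0.912) and Phlda3 (0.903), the last a listed p53 target. For Btg2 they were Tmprss11b (0.955), Evpl (0.955) and Cdc42bpg (0.949). For Gdf15 they were Pqlc3 (0.964), Btg2 itself (0.955) and Evpl (0.951). The 16 points share treatment groups and library depth, so the correlations describe a shared pattern of groups and carry no p.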

How the data were processed

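RNA was measured in 18 cultures, 3 per line and treatment. Per the submitters' processing notes, reads were processed with FastQC, HISAT2 and featureCounts on mm10, and the authors deposited raw read counts per transcript model (63759 rows). Not given in the sources used here are the annotation, the strand use and the handling of reads that overlap several models, so levels are not compared between genes. Per the labels' protocols, ribosomal RNA was depleted and reads were single and 50 bases long. The counts of all models of a symbol were summed here. The table's other column, model length, was used as deposited to name models only. edgeR 4.0.16 (R 4.3.3) gave trimmed-mean factors, its expression filter and the robust quasi-likelihood test over 6 group means, with Benjamini-Hochberg adjustment over all 12171 tested genes and a threshold of 0.05. Standard errors and 95% intervals come from that fit. A fit over 16 libraries (12383 genes) leaves out Δβ3 DMSO culture 1 and Δβ3 docetaxel culture 2. The test was also run on simulated counts with a coefficient of variation of 13.2% and no foreign transcripts. The 18-library fit had 36.0%, so that run does not show how the test behaves there. Coordinates are those of GENCODE M21. Members had between 166 and 314066 counts in all, and precision depends on these counts and on the spread between libraries.

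The members and lists were chosen with earlier results of these data known. Named were all members, up to 4 called genes of the smallest p in each list, Trp53, Plk2 and Pmaip1, and the 3 genes of most similar pattern to each of Cdkn1a, Btg2 and Gdf15. Cdkn1b, Cdkn2c, Ccnb1, Ccnb2, Cdc20 and single marker genes were named after their values were seen. Alternatives were DESeq2 1.42.0, other size factors, no filter, a replicate block, fits on each comparison's own groups, 1 transcript model per symbol, and counts without heart markers and Rn45s.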

Additional observations from a re-analysis of the deposited data

How the results depend on the processing

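The mean response called 9 members under each alternative over 18 libraries and 10 in each over 16, and 9 to 10 with 1 library left out. No response difference and no Δβ3 minus pMx difference in DMSO was called under any alternative run. In DESeq2 some of these comparisons left members without an adjusted p, and such members could not be called. Leaving out 1 library gave 1 to 9 calls for docetaxel in pMx, 4 to 9 in Δβ3 and 1 to 7 in hβ3, and in DMSO 1 to 5 for hβ3 against pMx and 1 to 4 against Δβ3. Deviations of cultures with the same replicate number correlated between -0.53 and 0.46 over 18 libraries. Cultures of different numbers were not correlated, so these values cannot show whether the numbers pair the cultures. With a replicate block the calls were 3, 5, 2, 1 and 2 in that order, and over 16 libraries 9, 7, 8, 5 and 5. Over 16 libraries without the block they were 9, 9, 8, 5 and 5, and with DESeq2, chosen after seeing the data, 9, 8, 7, 5 and 5. DESeq2 over 18 libraries gave 7, 6, 4, 5 and 3. It gave an adjusted p to only 9, 9, 7, 10 and 10 members there, and to 10, 8, 8, 10 and 10 over 16 libraries. Without the expression filter the calls were 1, 4, 2, 1 and 1. Fitted on their own groups they were 9, 0, 8, 5 and 2, and over 16 libraries, chosen after seeing the data, 9, 9, 8, 5 and 4. The fit on own groups for Δβ3 has 6 libraries, 2 of them those with heart transcripts. The cause of the other differences was not tested.

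Among single genes, log2 differences that were not called changed sign in 13 cases. Direction and side of the threshold were kept in 1508, 149 calls were lost and 109 gained. With 1 library left out Mdm2 ranged from -0.62 to 0.99 for docetaxel in Δβ3 and from -0.84 to 0.33 for hβ3 minus pMx in DMSO, where Gdf15 ranged from -0.36 to 0.29 and Trp53inp1 from -0.85 to 0.58. For hβ3 minus Δβ3 in DMSO, Trp53inp1 ranged from -1.32 to 0.54 and Btg2 from -0.20 to 0.16, and Btg2 was 0.16 in 16 libraries, with the replicate block and on own groups too, and 0.15 with DESeq2. Mdm2, Gdf15, Trp53inp1 and Cdkn1a have the fewest counts, 166 to 789 over the 18 libraries, and the part of depth in their errors was not tested.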
